A study of Homo sapiens with 36 samples.

Results

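Untreated Cal27 cells were compared with untreated HN6 cells, both cultured lines from human squamous cancers of the head and neck, to describe how the transcriptomes of these lines differ before any treatment. The comparison rests on 6 of the 36 libraries of the series, 3 labelled as Cal27 without treatment and 3 labelled as HN6 without treatment, chosen by their labels. Every autosomal gene with enough reads entered it, 16176 of the 58735 genes of the table. The wider study asked what interleukin-8 does in lines with unlike CXCR1 and what lies downstream of ACLY. It gave HN4, HN6 and Cal27 either interleukin-8 or nothing in one experiment, and a plasmid carrying ACLY or vector alone in another. Both groups used here were grown in the same medium with serum cleared of exosomes and received no agent and no plasmid. A further 3 Cal27 and 3 HN6 libraries, transfected with vector alone, serve below as a second set of the same lines. The labels number the 3 libraries of a group but do not say that they came from separate cultures, so p-values speak only to the scatter of these 3 and 3 libraries, which may be technical. Each group is 1 line, so a difference between the groups belongs to these lines and not to any clinical class.

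Squamous epithelia are built from keratin filaments, and the keratins a cell makes mark its state: KRT5 and KRT14 pair in the basal layer, KRT6, KRT16 and KRT17 appear in wounded or hyperproliferative epithelium, and KRT7, KRT8, KRT18 and KRT19 form the filaments of simple, single-layered epithelia. TP63 is the transcription factor that holds the basal squamous programme. Squamous cancers of this region often carry extra copies of EGFR or of the stretch around CCND1, and often lose CDKN2A, the locus of an inhibitor of the cell cycle.

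The 6 libraries held between 17793397 and 19188721 counts, and genes of the mitochondrial genome took 4.17 to 4.83% of them. Levels are given as CPM, counts scaled to the depth of a library and its TMM factor, either as the values of the 3 libraries in replicate order or as mean ± SD with n = 3, and differences are log2 values of Cal27 minus HN6 from edgeR. Of 12 squamous epithelial markers, 11 reached 1 CPM in HN6 and 12 in Cal27, with summed levels of 5023 to 5315 CPM and 8867 to 9807 CPM. KRT14 was the marker below 1 CPM in HN6. Summed markers of other cell types were far lower: fibroblast markers gave 17.0 to 18.3 CPM in HN6 and 27.0 to 29.6 in Cal27, leukocyte markers 3.63 to 3.69 and 3.69 to 4.70, and endothelial markers 9.72 to 12.1 and 28.7 to 29.4, mostly from CDH5. As a check of the labels, 14 genes read only in HN6 in the plasmid experiment summed to 180 to 187 CPM in the untreated HN6 libraries and 0.10 to 0.27 CPM in the Cal27 libraries. The 27 genes read only in Cal27 summed to 307 to 318 CPM in the untreated Cal27 libraries and 0.16 to 0.73 CPM in the HN6 libraries. In cultures read in bulk, fewer cells that make a gene and less of its RNA per cell cannot be told apart.

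Large differences were common. With edgeR, an adjusted p under 0.05 and an absolute log2 difference of at least 1 as the rule for a call, 5748 genes (35.5%) were called: 3434 (21.2%) were higher in Cal27 and 2314 (14.3%) lower. Without the fold limit 12469 genes (77.1%) passed, 39.6% higher and 37.5% lower, so passing the adjusted p alone says little of any gene here. In 78.5% of the genes the 3 Cal27 libraries and the 3 HN6 libraries did not overlap. The tail was long in both directions: 1047 genes were higher and 531 lower by at least 8-fold, and 353 and 258 by at least 64-fold. The median log2 difference over all tested genes was 0.03. Scaling by library size alone raised the median by 0.12 and gave 3815 higher and 2000 lower calls. Among protein-coding genes 32.1% were called, 17.9% higher and 14.2% lower.

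The vector libraries gave nearly the same picture from separate libraries. In Cal27 against HN6 with vector, 5737 genes (35.3%) were called. Of the 5532 genes called between untreated lines and tested there, 5527 had the same direction, 4994 (90.3%) were called again, and 0 were called in the opposite direction. No gene passed the test of a difference between the untreated and the vector contrast (edgeR, 0 of 17175 genes, with 729 at an unadjusted p under 0.05, and DESeq2, 0 genes with 560). Untreated and vector libraries of a line differed from each other no more than libraries within a group did: the chi-square per degree of freedom over genes ran from 2.33 to 8.11 between and from 2.41 to 8.44 within the Cal27 groups, and from 2.39 to 7.20 and from 2.67 to 7.83 in HN6. Within HN6 edgeR passed 1 of 14865 genes between vector and untreated, the pseudogene PTMAP5 (495 at an unadjusted p under 0.05, DESeq2 6), and within Cal27 0 of 16055 (704 at an unadjusted p under 0.05, DESeq2 0). The vector set is used as a repeat of the line comparison on the ground of its labels alone. Whether it shares cultures with the untreated set was not tested. Libraries this alike cannot show that the 2 sets are independent, so the share called again may overstate how well the differences repeat.

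**Figure D1:**
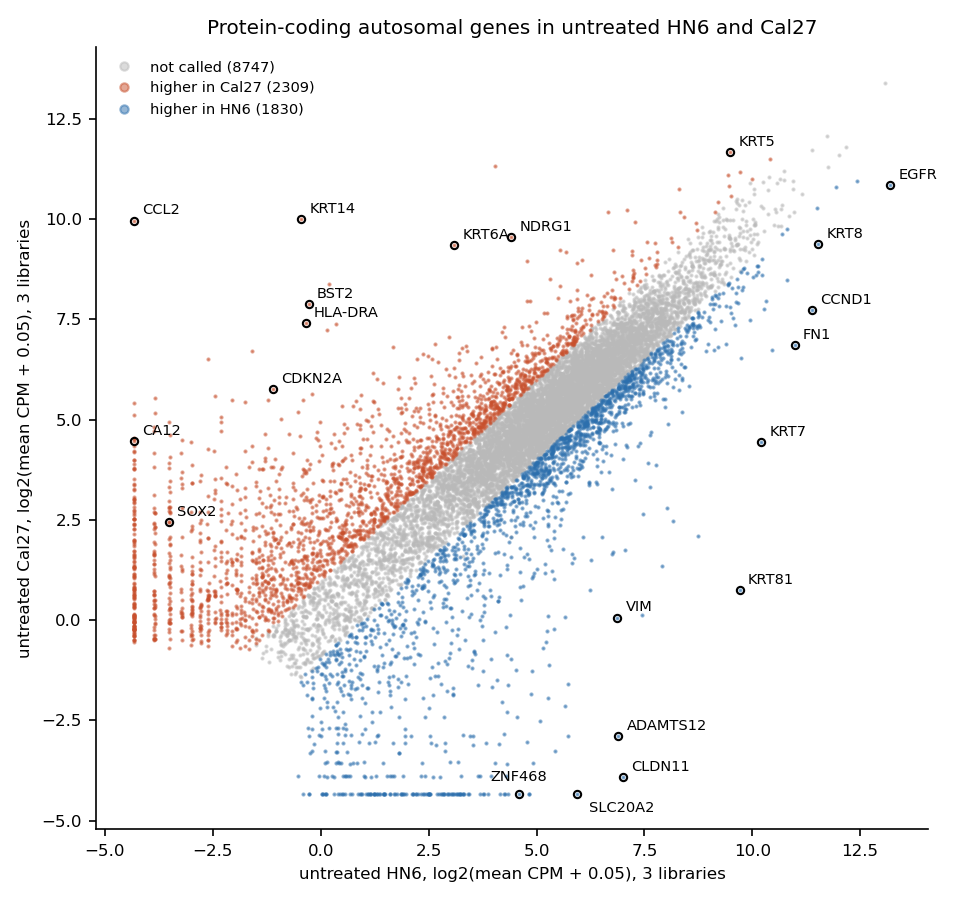
Mean CPM of each tested protein-coding autosomal gene in untreated HN6 (horizontal) and untreated Cal27 (vertical), both as log2 of CPM + 0.05, with genes called higher in Cal27, called higher in HN6 and not called in separate colours. CCL2 stands at the upper left edge and CLDN11 and SLC20A2 at or near the lower edge. KRT14 and KRT81 lie far from the diagonal but inside these edges, with most genes along the diagonal.

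Keratins had the highest share of called genes among the 47 gene lists. Of 32 keratin genes listed, 22 were tested, of which 13 were called higher in Cal27 and 7 lower, 90.9% against the 35.5% of all genes, with a median log2 difference of 2.27 against 0.03. The direction followed the type of keratin. KRT14, the basal partner of KRT5 (chromosome 17, 41582279 to 41586921, minus strand, hg38), was at 0.838, 0.731 and 0.468 CPM in the HN6 libraries and at 1130, 956 and 986 CPM in the Cal27 libraries. It was thus near the limit of reading in HN6 and among the abundant mRNAs of Cal27, with a log2 difference of 10.54 (SE 0.13, edgeR adjusted p = 9.6e-16). KRT5 itself was read in both lines, at 742, 668 and 752 CPM in HN6 and 3570, 3078 and 3162 in Cal27. Its difference was smaller than that of its partner, 2.18 on the log2 scale (SE 0.066, edgeR adjusted p = 2.11e-12), so HN6 carried KRT5 mRNA with almost no KRT14. Per kilobase of gene length, KRT5 and KRT14 stood at 168 and 0.298 CPM in HN6 and at 762 and 449 CPM in Cal27.

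The keratins of wounded epithelium were higher in Cal27. KRT6A went from 8.43 ± 0.25 to 651 ± 41.7 CPM, KRT16 from 3.91 ± 0.0935 to 38.3 ± 0.99 and KRT17 from 61 ± 6.36 to 483 ± 31.8. KRT6B was at 0.391, 0.337 and 0.117 CPM in HN6 and 111, 92.3 and 109.9 in Cal27, a log2 difference of 8.49 (SE 0.18, edgeR adjusted p = 8.54e-14). KRT15, a keratin of basal and progenitor cells, went from 27.6 ± 1.93 to 247 ± 17.5 CPM. KRT6A, KRT6B and KRT6C are near-identical copies, as are KRT81 and KRT86, and the sources used here do not give how reads matching several places were counted. The split within each family is therefore uncertain.

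The keratins of simple epithelia had the opposite direction. KRT7 was at 1271, 1084 and 1204 CPM in HN6 and 24.2, 19 and 21.7 in Cal27, and KRT19 at 464, 413 and 416 against 5.08, 4.03 and 3.69. No Cal27 library came near an HN6 library for either gene, and the log2 differences were -5.78 (SE 0.093) for KRT7 and -6.66 (SE 0.1) for KRT19, with edgeR adjusted p = 5.43e-15 and 3.28e-15. KRT8 (2947 ± 191 against 661 ± 43.9 CPM) and KRT18 (986 ± 30.7 against 179.9 ± 8.14) stayed well read in Cal27 at lower levels, log2 -2.16 and -2.45. KRT81, a hair keratin, gave the largest gap on this side. Its levels were 945, 679 and 878 CPM in HN6 and 1.46, 1.67 and 1.75 in Cal27, a log2 difference of -8.99 (SE 0.16, edgeR adjusted p = 1.16e-13).

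**Figure D2:**
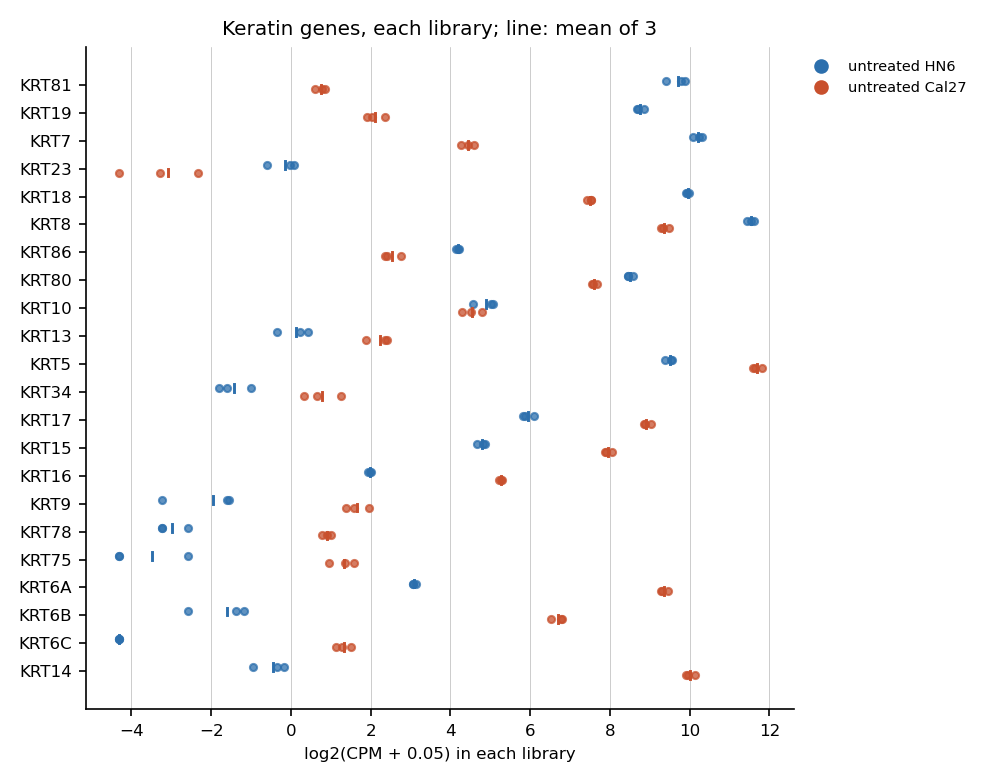
CPM of keratin genes in each untreated library, as log2 of CPM + 0.05, with HN6 and Cal27 libraries as separate points and a line at each mean. The 3 libraries of a line lie close together for well-read genes and can spread more at low levels, as for KRT6B in HN6. KRT5, KRT14, KRT6A, KRT6B and KRT17 are higher in Cal27, and KRT7, KRT8, KRT18, KRT19 and KRT81 are lower.

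Regulators of squamous identity were mixed. Of 27 lineage transcription factors tested, 9 were called higher in Cal27 and 6 lower, with a median of -0.07 that turns to 0.05 with library-size or upper-quartile scaling. TP63 was higher in every Cal27 library, at 573, 619 and 602 CPM against 107, 109.9 and 108 in HN6 (log2 2.46, SE 0.055, edgeR adjusted p = 1.35e-13). SOX2, on the same arm of chromosome 3 and a factor of oesophageal and oral progenitors, had 2 reads in the 3 HN6 libraries together and 310 in those of Cal27, a ratio of 141.8 (95% counting interval 39.3 to 1171). EHF, a factor of epithelial differentiation, was at 188 ± 8.38 CPM in HN6 and 693 ± 46.7 CPM in Cal27. GRHL3 and ZNF750, drivers of terminal differentiation, were low in both lines and higher in Cal27, at 3.24 ± 0.331 and 2.76 ± 0.104 CPM against 0.399 ± 0.206 and 0.344 ± 0.237. GATA3, a factor of luminal and glandular epithelia as well as skin, and SIM2 were lower in Cal27, at 1.21 ± 0.298 and 1.34 ± 0.251 CPM against 7.03 ± 0.653 and 17.3 ± 0.75.

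Products of differentiating keratinocytes did not all follow one line. Among 24 cornified envelope and epidermal genes 9 were called higher in Cal27 and 4 lower. CALML3, a calmodulin-like protein of stratified epithelia, was at 0.247 ± 0.119 CPM in HN6 and 43.3 ± 3.53 in Cal27, and the ammonium transporter RHCG at 0.247 ± 0.172 and 9.77 ± 0.817. CASP14, the caspase of the cornifying layer, went the other way, with 113 reads in HN6 and 0 in Cal27, at least 41.2-fold lower against a floor of 3 counts over the group. Of 15 S100 calcium-binding proteins 6 were called higher and 0 lower, 40%, near the share of all genes (9 and 3 past the edgeR adjusted p without the fold limit). S100A2 was at 136 ± 22.7 CPM in HN6 and 1203 ± 215 in Cal27. The SERPINB protease inhibitors gave 5 higher and 3 lower of 10 (80%), and SERPINB13 had 2 reads in HN6 against 526 in Cal27 (ratio 240.7, 95% counting interval 66.6 to 1987). Kallikreins, secreted proteases that loosen squames, were listed together with other epithelial proteases. Of 17 members of that joint list 8 were called higher in Cal27 and 4 lower (70.6%). The kallikreins KLK5 and KLK6 were lower, at 11.2 ± 2.12 and 2.87 ± 0.64 CPM against 156 ± 10.9 and 58.1 ± 0.904.

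Cadherin and desmosome genes were seldom called, and tight and gap junction genes more often. Of 19 cadherins and desmosome genes 1 was called higher and 2 lower, 15.8% against 35.5% of all genes. E-cadherin mRNA (CDH1) was at 449 ± 12.1 CPM in HN6 and 313 ± 5.82 in Cal27, plakoglobin (JUP) at 479 ± 28.2 and 479.9 ± 35.8, and desmoplakin (DSP) at 397 ± 14.5 and 604 ± 27.5. The called members were the N-cadherin gene CDH2, lower in Cal27 at 14.3 ± 0.735 against 84.3 ± 3.32 CPM (log2 -2.56), CDH4, lower at 1.54 against 3.42 CPM, and CDH13, higher at 72.2 ± 4.43 against 22.9 ± 1.51 CPM. The call of CDH4 was lost without HN6 replicate 1 (log2 -0.99) or Cal27 replicate 2 (-0.95). Claudins, tight and gap junction genes had 5 higher and 6 lower of 24, 45.8%. CLDN11, a claudin of myelin and testis, was the highest gene read in HN6 and at the floor in Cal27, at 123, 126 and 136 CPM in HN6 with 1 read in Cal27, a ratio of 7386 with a 95% counting interval from 1326 to 291723. The gap junction gene GJB6 had 0 reads in HN6 and 178 in Cal27, at least 54.3-fold higher.

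Mesenchymal genes were called lower in Cal27 more often than higher. Of 26 tested, 10 were called lower, 4 higher and 12 neither (53.8% called against 35.5% of all genes, median log2 -0.62 against 0.03). Vimentin (VIM), the filament protein of mesenchymal cells, was at 115, 115 and 122 CPM in HN6 and 1.35, 0.942 and 0.699 in Cal27. Fibronectin (FN1) was at 2023, 2104 and 1950 CPM against 110.4, 118 and 119. Each HN6 library lay far above each Cal27 library for both genes, with log2 differences of -6.88 (SE 0.13) and -4.13 (SE 0.058) and edgeR adjusted p = 2.68e-14 and 2.37e-15. TWIST2, a transcription factor of mesenchymal progenitors, had 376 reads in HN6 and 0 in Cal27, at least 137-fold lower. The receptor kinase AXL was at 558 ± 30 CPM in HN6 and 106 ± 0.972 in Cal27. Against this direction, LOX, the enzyme that cross-links collagen, went from 1.56, 2.14 and 3.04 CPM in HN6 to 70.7, 71.8 and 72.4 in Cal27 (log2 5.00, SE 0.14, edgeR adjusted p = 9.59e-13). PDPN, a surface mucin of invading edges and basal cells, and CD44, the hyaluronan receptor, were also higher, at 46.6 ± 2.48 and 2299 ± 101 CPM against 3.6 ± 0.47 and 845 ± 19.6. Fibroblast marker sums, given above, were higher in Cal27, opposite to VIM and FN1.

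Matrix genes divided almost evenly. Among 28 collagen and matrix genes 9 were called higher and 12 lower, and among 28 matrix proteases and plasminogen genes 7 and 11. ADAMTS12, a secreted metalloprotease, was at 118, 119.8 and 119 CPM in HN6 and 0, 0.0523 and 0.2 in Cal27, a log2 difference of -10.31 (SE 0.19, edgeR adjusted p = 2.48e-14). TIMP3, a matrix-bound inhibitor of such proteases, was lower as well, at 178 ± 5.9 against 6.19 ± 0.0958 CPM, and so was thrombospondin (THBS1), at 1407 ± 61.5 against 107 ± 3.31. MMP10 and MMP1, proteases of migrating keratinocytes, were higher in Cal27, at 8.68 ± 1.01 and 15.2 ± 0.797 CPM against 0.395 ± 0.199 and 1.17 ± 0.361. FBN2, a fibrillin of elastic microfibrils, had 0 reads in HN6 and 328 in Cal27, at least 100.1-fold higher. COL17A1, the collagen of hemidesmosomes, was at 316 ± 8.24 and 1721 ± 51.9 CPM, while LAMA3 (756 ± 23.8 and 187 ± 6.16) and PLEC (1240 ± 95.4 and 217 ± 21.1), of the same structure, were lower in Cal27. The whole list of integrins, laminins and hemidesmosome genes had 6 higher and 4 lower of 31, 32.3%, with ITGA6 at 1062 ± 48.8 and 928 ± 46.4 CPM.

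The interleukin-8 system, the subject of the wider study, differed in CXCR2 and in its ligands. Of 6 genes tested, 3 were called higher and 1 lower, 66.7% against 35.5% of all genes. CXCR1 had 0 reads in HN6 and 4 in Cal27, too few to enter the test, and its exact two-sided permutation p was 0.1, the smallest that 3 against 3 libraries allow. CXCR2 was also nearly unread in HN6, with 2 reads over its libraries against 404 in Cal27 (ratio 184.9, 95% counting interval 51.2 to 1526). CXCL8, which encodes interleukin-8, was made by both lines, at 166, 194 and 193 CPM in HN6 and 397, 452 and 477 in Cal27, 2.4-fold higher (edgeR adjusted p = 2.62e-09). CXCL6, another ligand of these receptors, had the reverse pattern, at 8.55, 9.84 and 10.1 CPM in HN6 and 1 read in all of Cal27.

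Cytokine genes were higher in Cal27 more often than lower: 21 of 43 were called higher and 4 lower, 58.1% against 35.5% of all genes, with a median of 0.61. CCL2, the monocyte-attracting chemokine, had the largest log2 difference of the comparison. It had 0 reads in every HN6 library and stood at 964, 1009.6 and 1016 CPM in Cal27, 57494 reads in all, at least 17538-fold higher against 3 counts over the HN6 group. CX3CL1, a membrane-bound chemokine, was at 1.79, 0.675 and 0.702 CPM in HN6 and 155, 145 and 150.4 in Cal27 (log2 7.14, SE 0.16, edgeR adjusted p = 1.92e-13). IL1A and IL1B, the epidermal alarm cytokines, were both higher, at 363 ± 25.2 and 302 ± 5.38 CPM against 39.9 ± 3.61 and 60.9 ± 1.2, and so was their antagonist IL1RN, at 26.3 ± 0.62 against 2.94 ± 0.502. TSLP, an epithelial cytokine of allergic inflammation, had 2 reads in HN6 and 234 in Cal27 (ratio 107.1, 95% counting interval 29.6 to 884). IL6 and IL11, which signal through a shared receptor chain, were lower in Cal27, at 1.5 ± 0.324 and 1.26 ± 0.274 CPM against 6.09 ± 0.968 and 13.7 ± 1.77.

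Among 24 NF-kB factors and targets 7 were called higher and 0 lower, 29.2% against 35.5% of all genes. These counts were 12 and 0 with library-size or upper-quartile scaling, and 19 and 3 passed the edgeR adjusted p without the fold limit. SOD2, a mitochondrial dismutase that this pathway induces, was at 156 ± 6.81 CPM in HN6 and 973 ± 57.5 in Cal27, and BCL2A1, a survival protein, at 0.113 ± 0.0968 and 4.12 ± 0.656. The factor NFKB1 was slightly lower in Cal27, at 76.5 ± 1.82 against 97.5 ± 4.38 CPM.

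Genes induced by interferon were broadly higher in Cal27. Interferons act through STAT and IRF factors that bind an element in the promoters of antiviral genes, and the list holds such genes together with those factors. Of 38 tested, 25 were called higher and 2 lower (71.1% against 35.5%), with a median of 1.39 against 0.03. BST2, a membrane tether that holds budding viruses, was at 1.12, 0.787 and 0.41 CPM in HN6 and 253, 221 and 234 in Cal27. IFI44L, an antiviral protein of the same response, was at 0.838, 0.562 and 0.585 CPM against 22.4, 25.1 and 25. Every Cal27 library exceeded every HN6 library many times over for both, and the log2 differences were 8.23 (SE 0.14, edgeR adjusted p = 1.29e-14) and 5.17 (SE 0.16, edgeR adjusted p = 3.01e-12). Their promoters are shown because they carry letters of the interferon-type element. The sequences are the 250 bases before the RefSeq start on GRCh38.p14, BST2 at chr19:17405631-17405880 on the minus strand and IFI44L at chr1:78620198-78620447 on the plus strand, 5′ to 3′, with GAAA, any 2 bases and GAAA again, on either strand, in capitals.
BST2: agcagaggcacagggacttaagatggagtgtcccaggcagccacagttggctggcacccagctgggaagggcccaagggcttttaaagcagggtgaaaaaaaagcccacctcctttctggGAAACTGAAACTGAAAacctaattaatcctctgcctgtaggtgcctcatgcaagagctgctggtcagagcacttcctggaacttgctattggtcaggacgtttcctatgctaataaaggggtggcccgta
IFI44L: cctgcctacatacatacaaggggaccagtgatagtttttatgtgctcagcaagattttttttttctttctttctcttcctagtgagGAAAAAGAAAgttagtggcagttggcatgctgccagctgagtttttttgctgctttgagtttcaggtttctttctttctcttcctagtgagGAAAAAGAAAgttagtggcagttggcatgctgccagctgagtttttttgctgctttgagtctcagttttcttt

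Each window holds 2 matches, in BST2 overlapping each other, and 3.57% of the 33725 autosomal RefSeq promoter windows of 300 bases, which reach 50 bases past the start, hold at least 1. Other members with large differences were OAS2, a sensor of double-stranded RNA (4.63 ± 0.439 against 90.9 ± 1.08 CPM), IFI27 (4.39 ± 0.66 against 66.0 ± 7.55), IFITM2 (0.704 ± 0.321 against 44.8 ± 3.43) and CMPK2 (0.132 ± 0.0842 against 8.01 ± 1.23). IFITM1 and IFITM2 overlap in the annotation, so reads may not be separable between them. The chemokines CXCL10 and CXCL11 were at 12.8 ± 1.62 and 14.1 ± 1.26 CPM in Cal27 against 0.719 ± 0.157 and 0.397 ± 0.0481. IRF9, one of the factors themselves, was at 2.41 ± 0.0588 against 1.8 ± 0.101 CPM, short of the threshold (edgeR adjusted p = 0.0648). HERC5, the ligase that attaches ISG15, and HERC6, which lies beside it on chromosome 4, were the lower members, at 10.5 ± 1.35 and 9.62 ± 0.492 CPM against 33.8 ± 3.55 and 24.6 ± 1.37.

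Many antigen presentation genes were higher in Cal27. Of those named here, class II genes differed most, and B2M and HLA-B of class I were also higher. Class II molecules show peptides to CD4 T cells; epithelial cells switch them on through the coactivator CIITA, which acts on X and Y boxes in their promoters. Of 25 genes of antigen presentation 13 were called higher and 0 lower, 52% against 35.5% of all genes, with 20 and 2 past the edgeR adjusted p without the fold limit. CIITA was at 7.04, 7.65 and 6.91 CPM in HN6 and 40.4, 39.4 and 40.4 in Cal27 (log2 2.48, SE 0.089, edgeR adjusted p = 1.24e-11). HLA-DRA, the alpha chain of HLA-DR, was at 1.17, 0.45 and 0.585 CPM in HN6 and 172, 173 and 166 in Cal27. The class II transcripts were thus close to unread in HN6 although CIITA was read there. HLA-DRA differed by 7.84 on the log2 scale (SE 0.14, edgeR adjusted p = 2.16e-14), HLA-DRB1 by 7.72, HLA-DPA1 by 7.36, and HLA-DMA and HLA-DMB, which load peptides, by 3.93 and 6.78. HLA-DPB1 had 0 reads in HN6 and 464 in Cal27, at least 141.5-fold higher. CD74, the chaperone of class II chains, was read in both, at 66.2 ± 1.75 and 509 ± 12.9 CPM. Class II genes are polymorphic and have close copies, so reads of one may be counted on another. The promoters of HLA-DRB1 (chr6:32589849-32590098), HLA-DMA (chr6:32953098-32953347) and HLA-DMB (chr6:32941029-32941278), all minus strand on GRCh38.p14 from RefSeq, are given for the 250 bases before the start, with TGATGATG (the X2 part of the X box) and CCAAT (the Y box core, ATTGG on the other strand) in capitals.
HLA-DRB1: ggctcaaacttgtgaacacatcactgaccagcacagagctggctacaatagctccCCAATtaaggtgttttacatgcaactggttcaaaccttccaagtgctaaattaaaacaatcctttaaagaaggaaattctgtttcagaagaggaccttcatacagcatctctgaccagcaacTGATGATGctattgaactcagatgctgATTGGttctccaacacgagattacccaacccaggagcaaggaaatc
HLA-DMA: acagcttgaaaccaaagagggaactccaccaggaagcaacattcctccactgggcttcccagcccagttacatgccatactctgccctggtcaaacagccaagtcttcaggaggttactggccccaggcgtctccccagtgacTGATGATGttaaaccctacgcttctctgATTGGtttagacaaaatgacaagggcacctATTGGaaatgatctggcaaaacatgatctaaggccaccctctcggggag
HLA-DMB: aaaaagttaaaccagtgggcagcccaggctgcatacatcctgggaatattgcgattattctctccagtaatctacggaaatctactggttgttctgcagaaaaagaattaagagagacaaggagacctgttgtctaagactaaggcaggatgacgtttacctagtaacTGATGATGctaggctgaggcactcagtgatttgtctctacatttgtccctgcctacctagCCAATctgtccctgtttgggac

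Of 5 class II chain genes with a RefSeq promoter entry, 3 held TGATGATG on either strand, a run of letters found in 0.949% of all promoter windows, and 4 held CCAAT, found in 34.4%. The match describes the letters of a window and not binding. Class I differed less. B2M, the light chain of class I, was at 700.2 ± 19.3 CPM in HN6 and 1800 ± 37.4 in Cal27 and HLA-B at 310.3 ± 10.1 and 632 ± 20, while HLA-C did not pass the test (779 ± 77.6 and 715 ± 78.7, edgeR adjusted p = 0.175). Among 23 checkpoint molecules and ligands of natural killer cells, 10 were called higher and 2 lower, 52.2% against 35.5% of all genes. ULBP1, a ligand of the killer receptor NKG2D, was at 0.7 ± 0.102 and 8.94 ± 0.412 CPM, and CD274 (PD-L1) at 17.8 ± 0.536 and 10.2 ± 1.24, lower in Cal27 by less than 2-fold. Leukocyte marker sums were at most 4.70 CPM in every library.

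**Figure D3:**
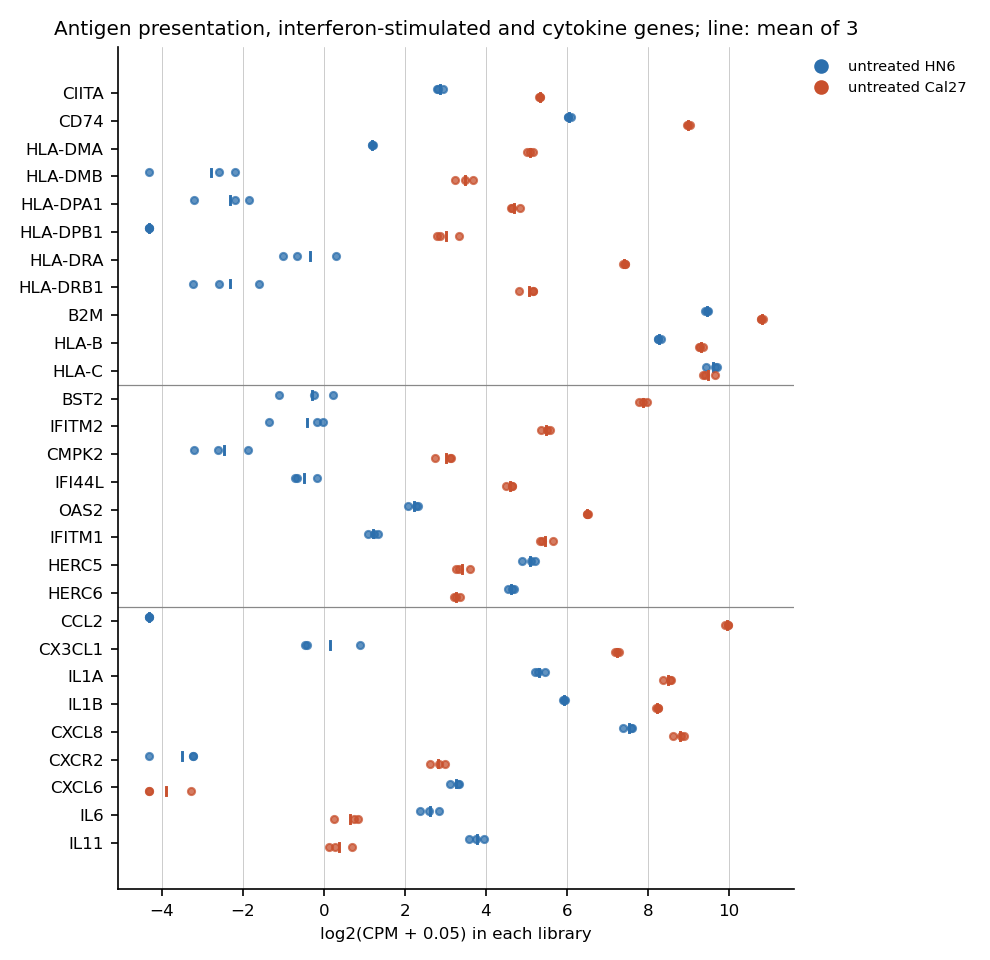
CPM of cytokine, interferon-induced and antigen presentation genes in each untreated library as log2 of CPM + 0.05, with libraries of HN6 and Cal27 as separate points and a line at each mean. CCL2 lies at the lowest value of the scale in the 3 HN6 libraries, while BST2 and HLA-DRA are low there but read. Each of these genes lies above 100 CPM in the 3 Cal27 libraries.

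Genes of hypoxia and glycolysis were higher in Cal27. Cells short of oxygen stabilise the HIF factors, which bind a short core in the promoters of glycolytic enzymes, carbonic anhydrases and their own regulators. Of 34 genes tested 18 were called higher and 2 lower, 58.8% against 35.5% of all genes, with a median of 1.07 against 0.03. CA9, the carbonic anhydrase often used as a mark of hypoxia, was at 12.5, 9.05 and 9.95 CPM in HN6 and 108, 102 and 104 in Cal27, with no overlap between the lines (log2 3.32, SE 0.1, edgeR adjusted p = 2.11e-12). CA12, a related anhydrase, had 0 reads in HN6 and 1276 in Cal27, at least 389-fold higher. ALDOC, a glycolytic aldolase, was at 0.95, 1.41 and 1.35 CPM in HN6 and 179.7, 169 and 156 in Cal27 (log2 7.08, SE 0.12, edgeR adjusted p = 9.84e-15). NDRG1, a stress protein, went from 21.3 ± 2.14 to 748 ± 29.6 CPM, ENO2 from 7.81 ± 1.09 to 133 ± 8.05, the oxygen sensor EGLN3 from 28.9 ± 0.904 to 247 ± 1.58, BNIP3 from 46.9 ± 1.97 to 319.6 ± 4.04 and the glucose transporter SLC2A1 from 147 ± 5.68 to 547 ± 29.7. PKM and ENO1, abundant glycolytic enzymes, differed by less than 2-fold and in opposite directions. PKM was at 4594 ± 155 and 3587 ± 154 CPM and ENO1 at 3419 ± 130.0 and 4335 ± 103, while LDHA was 2.12-fold higher in Cal27. Without the fold limit 28 of the 34 genes were higher and 5 lower past the edgeR adjusted p. PFKFB4, a regulator of glycolysis, was called lower. Oxygen and culture density are not in the labels, and their part in these values was not tested.

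The promoter of CA9 is shown for its HIF core, which lies just ahead of the start: 250 bases at chr9:35673678-35673927, plus strand, GRCh38.p14 from RefSeq, with ACGTG or its reverse complement CACGT in capitals.
CA9: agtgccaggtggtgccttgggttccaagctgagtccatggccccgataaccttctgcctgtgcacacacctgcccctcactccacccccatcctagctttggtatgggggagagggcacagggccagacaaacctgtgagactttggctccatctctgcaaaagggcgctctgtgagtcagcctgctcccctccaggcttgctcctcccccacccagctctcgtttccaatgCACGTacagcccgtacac

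Of the 30 list members with a RefSeq promoter, 12 of the 15 called higher held ACGTG on either strand and 5 of the 13 not called, against 24.8% of all genes with an entry. The list was drawn up from genes known as HIF targets, so this count describes it and is not independent of its making.

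Growth control genes differed at loci that are often altered in these cancers. EGFR, the receptor of epidermal growth factor, was at 9308, 9799 and 9173 CPM in HN6 and at 1746, 1893 and 1881 CPM in Cal27 (log2 -2.36, SE 0.05, edgeR adjusted p = 8.49e-14). It was well read in both lines, with 753 CPM per kilobase of gene length in HN6 and 147 in Cal27. Within 2 Mb of EGFR, a stretch chosen after its values were seen, 4 of 12 genes were called higher in Cal27 and 2 lower, EGFR itself being 1 of the 2. Over all protein-coding genes 17.9% were called higher and 14.2% lower. SEC61G was lower as EGFR was, at 287 ± 27.8 against 788 ± 13.5 CPM, whereas CHCHD2 was higher at 739.5 ± 53.2 against 276 ± 14.2. Over 43 receptor kinases and EGF-family ligands, 12 were called higher and 6 lower, 41.9% against the 35.5% of all genes. NTRK2, the neurotrophin receptor, and FGFR4 were higher in Cal27, at 55.4 ± 2.52 and 28.9 ± 3.47 CPM against 4.19 ± 0.225 and 2.59 ± 0.426, and ROR1 and EPHB6 were lower, at 3.32 ± 0.387 and 0.842 ± 0.399 against 40.5 ± 4.02 and 19.5 ± 0.223.

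CCND1, the cyclin that opens the G1 checkpoint (chromosome 11, 69641087 to 69654474), was at 2613, 2701 and 2644 CPM in HN6 and 211, 209.6 and 212 in Cal27, a log2 difference of -3.65 (SE 0.049, edgeR adjusted p = 1.62e-15). Neighbours on the same arm, picked after their values were seen, were lower with it: LTO1 (250.4 ± 3.07 against 39.8 ± 1.86 CPM), FADD (134 ± 17.6 against 20.6 ± 3.39), PPFIA1 (668 ± 26.2 against 118 ± 3.41) and CTTN (1781 ± 78.6 against 359.9 ± 9.35). ANO1, which lies between LTO1 and FADD, was not lower, at 55.9 ± 0.743 and 69.5 ± 5.07 CPM. In all, 7 of 28 genes within 2 Mb of CCND1 were called lower, CCND1 itself among the 7, and 5 higher. Over all protein-coding genes 14.2% were called lower and 17.9% higher. CCND2, a related cyclin, was at 0.0756 ± 0.0319 CPM in HN6 and 10.6 ± 1.05 in Cal27.

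CDKN2A, the locus of the p16 inhibitor of CDK4 and CDK6 (chromosome 9, 21967753 to 21995301, minus strand), was at 0.503, 0.394 and 0.351 CPM in HN6 and 63.9, 46.7 and 51.0 in Cal27, a log2 difference of 6.99 (SE 0.2, edgeR adjusted p = 1.16e-12). Of 10 genes within 2 Mb, again chosen after their values were seen, 6 were called higher in Cal27 and 0 lower, against 17.9% and 14.2% of all protein-coding genes. Among the 6 were CDKN2A itself, MTAP (15.6 ± 1.22 and 110.3 ± 6.47 CPM) and KLHL9 (20.8 ± 0.701 and 52.9 ± 2.52). CDKN2B, next to CDKN2A, was read in both lines at 15 ± 0.333 and 21.1 ± 1.75 CPM. Copy number was not measured in these files, and its part in the values of these regions was not tested.

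Genes of mitosis were lower in Cal27. Of 30 tested, 18 were called lower and 0 higher, 60% against 35.5% of all genes. Without the fold limit 27 were lower and 0 higher past the edgeR adjusted p, and the median was -1.30. AURKB, a kinase of the chromosomal passenger complex, was at 175, 164 and 166 CPM in HN6 and 22.0, 21.7 and 20.7 in Cal27 (log2 -2.97, SE 0.067, edgeR adjusted p = 1.58e-13). The spindle kinase AURKA (333 ± 4.37 against 63.1 ± 2.25 CPM), the kinesin KIF23 (315 ± 11.2 against 69.0 ± 4.01), the centromeric histone CENPA (67.1 ± 4.69 against 15.6 ± 2.03) and the proliferation marker MKI67 (1029 ± 76.8 against 373 ± 23.4) were lower in each Cal27 library. PRC1, a spindle midzone protein, did not pass (edgeR adjusted p = 0.635). G1 cyclins, kinases and inhibitors had 5 higher and 10 lower of 31 (48.4%), with CDKN1A at 149 ± 13.5 and 68.6 ± 2.52 CPM.

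Signalling pathways of development held strong differences in single genes. In the TGF-beta and BMP list 10 of 37 were called higher and 10 lower, 54.1% against 35.5% of all genes. BMP7 had 0 reads in HN6 and 546 in Cal27, at least 166.6-fold higher. INHBB, an activin subunit, had the reverse pattern, at 54.8, 52.7 and 51.7 CPM in HN6 and 0.54, 0.105 and 0.2 in Cal27 (log2 -7.54, SE 0.19, edgeR adjusted p = 5.04e-13). The BMP antagonist NOG was at 8.38 ± 0.693 against 0.223 ± 0.11 CPM, and the shared signal transducer SMAD4 at 48.1 ± 3.59 against 9.31 ± 0.185, both lower in Cal27. In the WNT list 6 of 34 were higher and 8 lower, 41.2%, near the share of all genes. WNT3A and the feedback inhibitor NKD1 had 0 reads in HN6 and 327 and 274 in Cal27, while the decoy receptor SFRP1 had 409 in HN6 and 0 in Cal27. In the Notch list 7 of 20 were higher and 3 lower, 50%. The ligand DLL1 (2.43 ± 0.608 against 64.7 ± 4.42 CPM), the ligand JAG1 (76.8 ± 3 against 257 ± 6.45), the receptor NOTCH3 (19.3 ± 1.39 against 133 ± 12) and the target HEYL (0 reads against 142) were all higher in Cal27. Of 23 genes of the YAP and TAZ list 0 were called higher and 5 lower, 21.7% against 35.5% of all genes, with 6 and 12 past the edgeR adjusted p without the fold limit. ANKRD1, a target of these factors, was at 19.7 ± 1.06 and 0.502 ± 0.297 CPM, while YAP1 itself was at 127 ± 8 and 211 ± 9.04, higher in Cal27 by less than 2-fold.

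Among metabolic genes, those of fatty acid and cholesterol synthesis were called about as often as all genes (35.5%) or less. ACLY, the gene overexpressed in the other experiment, was at 281, 276 and 274 CPM in HN6 and 236, 237 and 230.1 in Cal27. Each Cal27 library was below each HN6 library by a small margin, log2 -0.24 (SE 0.05, edgeR adjusted p = 0.00058), and the exact two-sided permutation p was 0.1. Of 36 genes of acetyl-CoA supply, fatty acid synthesis and lipid droplets 6 were called higher and 3 lower, 25%. FASN did not differ beyond its spread (723 ± 47 and 672 ± 71.8 CPM, edgeR adjusted p = 0.198). Of 28 cholesterol genes 9 were higher and 1 lower, 35.7%. That one, DHCR7 (731 ± 21.9 against 203 ± 12.1 CPM), lies on chromosome 11 within 2 Mb of CCND1. NADSYN1, the gene beside it, did not pass, at 120 ± 2.29 and 118 ± 3.96 CPM (edgeR adjusted p = 0.68). Whether the position of DHCR7 bears on its level was not tested. Enzymes of aldehyde, aldo-keto and drug metabolism were called more often, with 16 of 34 higher and 6 lower, 64.7%. GSTM1 and GSTM3, glutathione transferases with close copies, had 0 reads in HN6 and 207 and 468 in Cal27, and ALDH1A3, which makes retinoic acid, was at 164 ± 8.66 and 20.1 ± 0.858 CPM. NRF2 targets had 3 higher and 6 lower of 28, 32.1%, with NQO1 at 296 ± 7.15 and 73.8 ± 3.23 CPM.

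Mucins and other glandular genes were called often and in both directions: 7 of 16 were higher in Cal27 and 5 lower, 75% against 35.5% of all genes. MUC4, a membrane mucin, was at 40.0, 40.1 and 37.0 CPM in HN6 and 0.216, 0.576 and 0.449 in Cal27 (log2 -6.53, SE 0.17, edgeR adjusted p = 5.54e-13). MUC15, another membrane mucin, had 0 reads in HN6 and 381 in Cal27, at least 116.2-fold higher. EPCAM, the epithelial adhesion molecule, was at 549 ± 17.9 and 235 ± 4.29 CPM. Among complement and coagulation genes 10 of 27 were higher and 4 lower, 51.9%. PROS1, the gene of the anticoagulant protein S, was at 0.283 ± 0.146 CPM in HN6 and 20.1 ± 1.7 in Cal27, while TFPI2, a protease inhibitor, was lower in Cal27, at 0.0682 ± 0.0591 against 17.6 ± 0.742 CPM. The complement factor C3 was at 908 ± 21.4 and 635 ± 9.42 CPM.

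Genes of ATF4 and the unfolded protein response were called about as often as all genes, 7 higher and 4 lower of 35 (31.4%). CHAC1, which degrades glutathione, and the stress gene DDIT4 were higher in Cal27, at 24.7 ± 2.38 and 576 ± 80 CPM against 1.2 ± 0.182 and 51.1 ± 6.54. The factor ATF5 and the secreted protein MANF were lower, at 7.49 ± 0.736 and 18.5 ± 0.783 CPM against 45 ± 2.82 and 52.4 ± 3.92. Of 11 metallothionein and metal transport genes 4 were higher and 1 lower (45.5%), a count of 5 that was 9 without a filter on low counts and 3 with a filter at a mean of 5 CPM. MT1M had 0 reads in HN6 and 299 in Cal27, and the transferrin receptor TFRC was at 852 ± 26.5 and 412 ± 23.6 CPM. The call of TFRC was lost with library-size or upper-quartile scaling (log2 -0.93 in each), which left 0 lower, and in some other settings. Of 6 melanocyte and neural markers 3 were higher and 1 lower, 66.7% against 35.5% of all genes.

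HOX genes, which record position along the body axis, were called about as often as all genes, and other patterning factors more often. Of 29 HOX genes 7 were called higher and 3 lower, 34.5% against 35.5%, and 9 and 1 with library-size or upper-quartile scaling. HOXC10 was at 0.132 ± 0.0633 CPM in HN6 and 11.4 ± 1.43 in Cal27, and HOXD10 at 90.7 ± 3.64 and 42.5 ± 1.88, a call lost with either of those scalings (log2 -0.97). Of 52 other patterning factors 11 were higher and 17 lower, 53.8%. ZIC1 and TBX18 had 445 and 429 reads in HN6 and 0 in Cal27, at least 162.1-fold and 156.3-fold lower, while FOXF2 had 0 in HN6 and 434 in Cal27, at least 132.4-fold higher. Stem cell associated genes had 7 higher and 4 lower of 20 (55%), and autosomal cancer-testis antigens 5 and 6 of 22 (50%), against 35.5% of all genes. LIN28B, the fetal protein that blocks let-7 microRNAs, was at 13, 14.3 and 13.8 CPM in HN6 with 0 reads in Cal27, at least 263-fold lower. CD24, a surface marker of epithelial progenitors, was at 288 ± 5.59 and 5.49 ± 0.646 CPM. The cancer-testis antigen PRAME was higher in Cal27, at 15.5 ± 0.434 against 0.359 ± 0.177 CPM. Among 31 long noncoding RNAs 11 were higher and 5 lower, 51.6%. NEAT1, the scaffold of nuclear paraspeckles, was at 138, 132 and 135 CPM in HN6 and 3602, 3270 and 3851 in Cal27 (log2 4.73, SE 0.067, edgeR adjusted p = 2.37e-15), and DANCR at 123 ± 1.92 and 16.7 ± 1.75.

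Vesicle, ribosomal and chaperone genes were called less often than all genes (35.5%). Of 38 genes of small extracellular vesicle formation 2 were called higher and 2 lower, 10.5%, and 5 to 6 and 1 with library-size or upper-quartile scaling. Among 74 cytosolic ribosomal proteins 11 were higher and 1 lower (16.2%), with a median of 0.42, and RPLP0 was at 1968 ± 36.4 and 1990 ± 78.3 CPM. Of 28 heat shock chaperones 2 were higher and 4 lower, 21.4%. HSPA8 and HSP90AA1 were both lower in Cal27, at 1239 ± 58.1 and 1781 ± 116 CPM against 2902 ± 95.1 and 3955 ± 244.

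**Figure D4:**
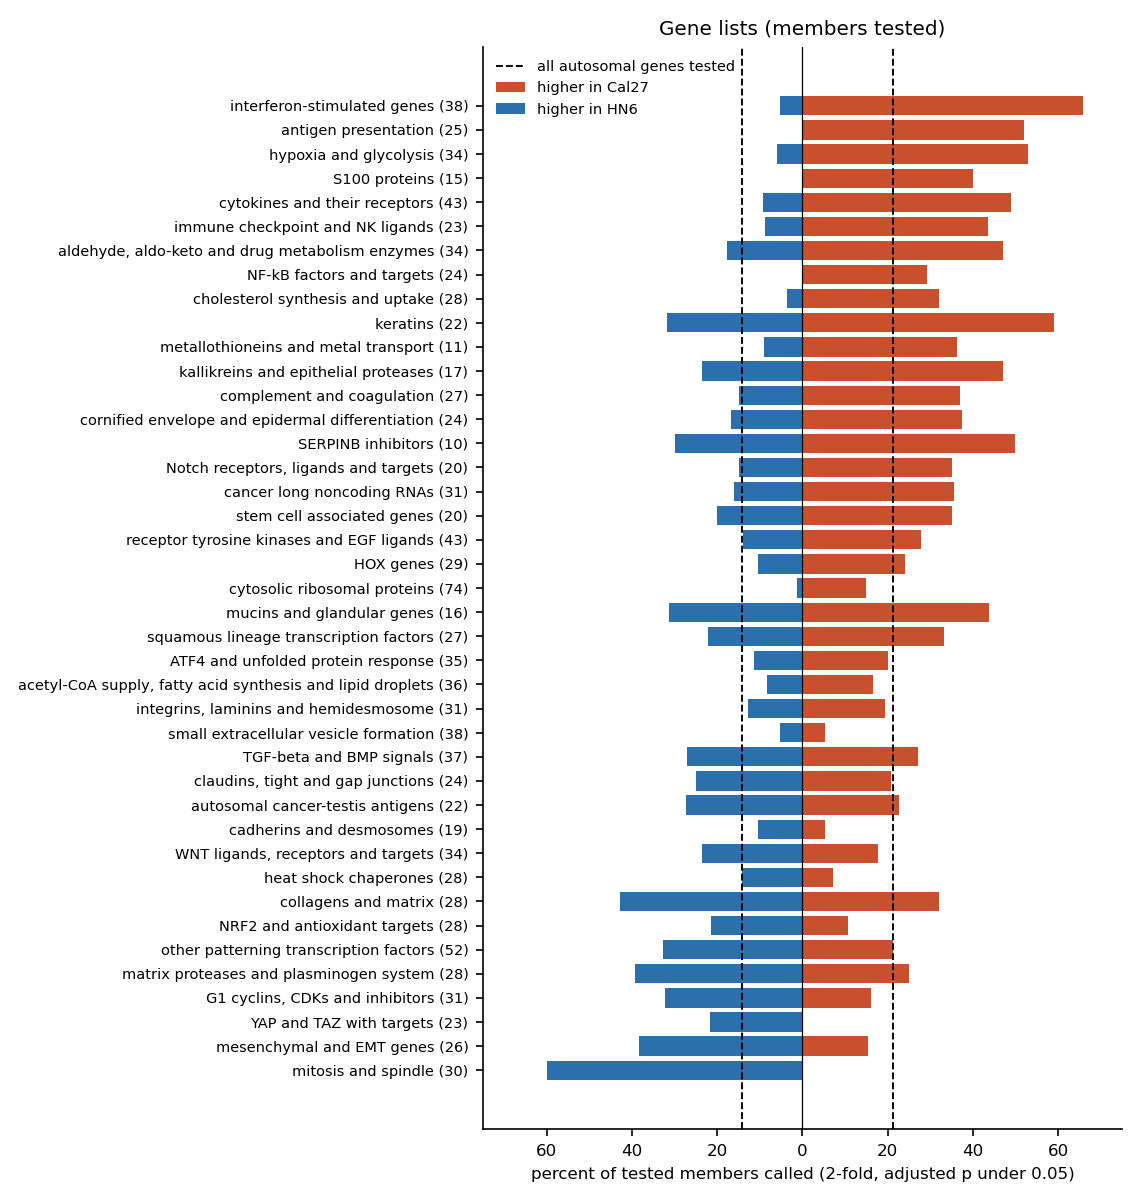
Percent of the tested members of each gene list called at least 2-fold higher (to the right) or lower (to the left) in Cal27, 1 bar per list shown, each with at least 10 tested members, with the background of 21.2% and 14.3% of all genes marked. Keratins and interferon-stimulated genes have the longest bars to the right, and mitosis genes reach only to the left.

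Some genes were read in one line and not in the other. With a mean of at least 5 CPM in one line and at most 3 reads over the 3 libraries of the other, 75 protein-coding genes were read in Cal27 alone, of which 38 had 0 reads in HN6, and 65 in HN6 alone, of which 48 had 0 in Cal27. In the vector libraries 60 of the 75 and 56 of the 65 met both limits again. HN4 read 14 of the 75 and 28 of the 65 at 5 CPM or more. Besides CCL2, the Cal27 set held ADCY1, an adenylate cyclase of neurons, with 2435 reads against 0 (at least 743-fold higher), the neurofilament genes NEFL and NEFM with 1330 and 1069 against 0, the neuropeptide gene GAL with 1321 against 0 and the stress factor NUPR1 with 1155 against 0. MRPL23, a protein of the mitochondrial ribosome, had 1979 reads in Cal27 and 0 in HN6, and SPART 2664 and 1. The HN6 set held the phosphate transporter SLC20A2 with 3226 reads against 0 in Cal27 (at least 1175-fold lower), the RhoGAP gene DLC1 with 1505 against 0, DCAF4L2 with 1487 against 0 and the lymphoid factor BATF with 1069 against 0.

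Zinc finger genes of chromosome 19 made up much of the HN6 set. These genes encode KRAB zinc finger proteins, a family of DNA-binding repressors that sit in clusters of recent duplicates on that chromosome. The family was singled out after its values were seen, so it carries no test. Of 180 ZNF genes tested on chromosome 19, 73 (40.6%) were called lower in Cal27 and 17 higher, and 55 had at most 3 reads over the Cal27 libraries against 2 in HN6. Of 202 ZNF genes on the other autosomes 35 were lower and 29 higher, and of 754 other protein-coding genes of chromosome 19, 75 were lower and 130 higher. The lower genes lay in clusters: from 50 to 55 Mb 27 of 29 ZNF genes were called lower and 0 higher (median log2 -8.87), while of 42 other genes there 13 were lower and 7 higher. From 20 to 25 Mb all 14 tested genes were ZNF genes, of which 11 were lower and 1, ZNF431, higher (10.2 ± 0.406 and 30.7 ± 1.7 CPM). ZNF468 was at 22.9, 26.3 and 23.6 CPM in HN6 with 0 reads in Cal27, at least 466-fold lower. ZNF260, ZNF160 and ZNF28 had 1017, 1007 and 938 reads in HN6 and 0 in Cal27. Close paralogs share sequence, and reads matching several of them may have been left out or counted on 1 copy. The promoter of ZNF468 (chr19:52857620-52857869, minus strand, GRCh38.p14 from RefSeq) is printed, as the one of these 4 with most reads in HN6, with its CG pairs in capitals.
ZNF468: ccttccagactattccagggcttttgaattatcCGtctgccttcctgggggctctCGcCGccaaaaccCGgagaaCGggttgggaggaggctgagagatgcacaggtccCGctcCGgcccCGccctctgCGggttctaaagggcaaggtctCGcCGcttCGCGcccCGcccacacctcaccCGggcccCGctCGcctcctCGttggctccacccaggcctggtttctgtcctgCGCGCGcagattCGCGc

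The window holds 23 CG pairs in 250 bases. Over windows of 300 bases the median was 22 for the 62 lower ZNF genes of chromosome 19 with a RefSeq entry and 22 for the 97 not lower. It was 28 over all tested protein-coding genes with an entry, but only 78.9% of them had one, too few for that comparison to be used. Methylation was not measured in these files.

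Histone genes of the replication-dependent clusters were lower in Cal27 as a block, also singled out after their values were seen. Of 35 tested HIST1, HIST2 and HIST3 genes, 34 (97.1%) were called lower and 1 higher, with a median log2 difference of -3.30. Over all protein-coding genes 14.2% were called lower. HIST1H2BK was at 259.6, 265 and 254 CPM in HN6 and 8.15, 6.07 and 6.64 in Cal27 (log2 -5.22, SE 0.091, edgeR adjusted p = 1.15e-14), HIST1H2BJ at 50.7 ± 1.02 and 1.02 ± 0.487, and HIST1H1C at 108 ± 11.6 and 9.53 ± 1.01. The exception was HIST2H2AC, at 0.698 ± 0.201 and 1.44 ± 0.479 CPM. Most mRNAs of these genes lack a poly-A tail, and these libraries were selected for one. The genes also have close copies. The mitosis genes, lower in the same libraries, are given above.

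Differences were not spread evenly over the autosomes. The median log2 difference of protein-coding genes was lowest on chromosomes 14 (-0.57), 20 (-0.53), 4 (-0.52) and 17 (-0.39) and highest on chromosomes 5 (0.41), 9 (0.34) and 15 (0.30). In the vector libraries the same medians were -0.57, -0.51, -0.48, -0.37, 0.40, 0.32 and 0.30. On chromosome 14, 145 of 438 genes were called lower and 55 higher, and on chromosome 9, 150 of 539 were higher and 38 lower. Of 431 windows of 5 Mb with at least 10 tested protein-coding genes, 65 had a median of at least 0.5 and 73 of at most -0.5. Apart from the chromosome 19 cluster the lowest were chromosome 4 from 155 to 160 Mb (-1.76), with PDGFC at 137 ± 9.32 and 19.8 ± 1.16 CPM, and chromosome 6 from 25 to 30 Mb (-1.75), where the histone cluster lies and 33 of 62 genes were lower. The highest were chromosome 11 from 35 to 40 Mb (1.78), with CD44 and TRIM44 (213 ± 5.24 and 673 ± 23.8 CPM), chromosome 9 from 20 to 25 Mb (1.57), with MTAP and KLHL9, and chromosome 10 from 40 to 45 Mb (1.53).

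**Figure D5:**
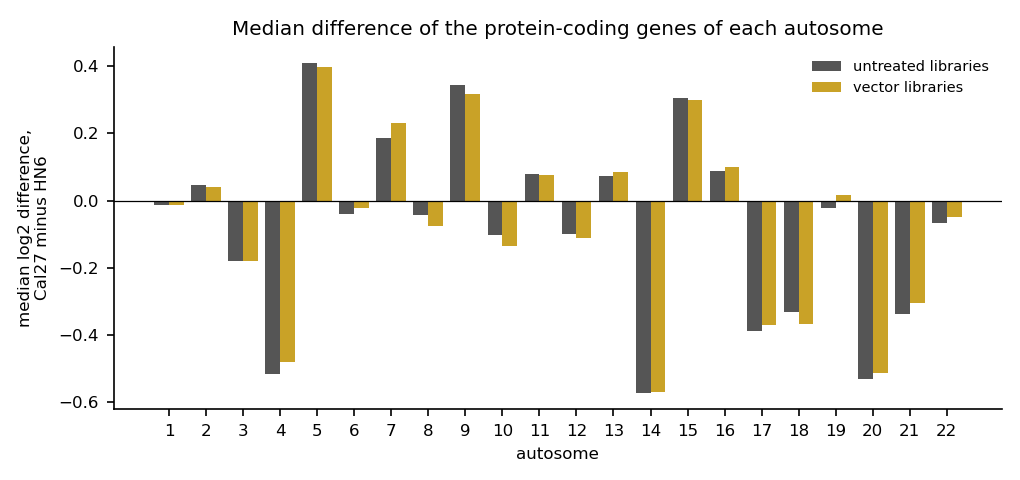
Median log2 difference (Cal27 minus HN6) of the tested protein-coding genes of each autosome in the untreated and in the vector libraries. Chromosomes 4, 14, 17, 18, 20 and 21 lie below -0.3 and chromosomes 5, 9 and 15 above 0.3 in both sets of libraries.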

How the data were processed

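Gene counts of 36 poly-A selected libraries were used, of which 6 (untreated Cal27 and untreated HN6, n = 3 each) make the comparison. The authors deposited whole-number counts per gene with no normalization and a gene length in bases. The submitters' processing notes name HISAT2 2.0.5, featureCounts 1.5.0-p3, CASAVA, DESeq2 and the build hg38. The strand setting, annotation release and handling of reads that match several places are not given in the sources used here. Groups come from the labels. Counts were fitted with edgeR 4.0.16 in R 4.3.3 (TMM, filterByExpr with a minimum count of 10 and a total of 15, robust quasi-likelihood, 4 residual degrees of freedom, two-sided, Benjamini-Hochberg over the 16763 genes fitted, X, Y and mitochondrial genes included); only autosomal genes are counted. Replicates correlated at 0.992 to 0.994 and differed by more than sampling noise, so each was kept. A count of 0 allows 3 counts of a library's total, 0.156 to 0.169 CPM; floors and intervals cover counting error only. The members, the 47 gene lists and the rules were chosen with earlier results of these data known. Genes named were ACLY, CXCR1, CXCR2, CXCL8, the 10 largest differences each way (mean log2 CPM of at least 1, no overlap), 4 called and the 2 most abundant members of each list, the 5 highest genes at the floor of the other line, and 3 genes in each of the 6 extreme windows; other genes were chosen after their values were seen. Some of the genes and lists are not reported here. No set test was run. In simulated counts 86.0% of genes changed 2-fold passed the adjusted p, and 10 of 16090 unchanged genes did. The simulation changed few genes, as many up as down, whereas 77.1% of genes passed in the data. Its shares therefore do not give the power or the rate of false calls of this comparison. DESeq2 1.42.0, other scalings, filters, libraries and the replicate number as a block were alternatives.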

Additional observations from a re-analysis of the deposited data

How the results depend on the processing

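With at least 2-fold as the rule, the count of called genes was 5815 with library-size scaling (3815 higher, 2000 lower), 5689 with DESeq2, 6110 with the 9 untreated libraries, 6342 with the 18 libraries of that experiment, 4142 among protein-coding genes tested alone and 4340 with a test against the 2-fold limit itself. It was 8121 without a filter on low counts and 2743 with a filter at a mean of 5 CPM, where fewer genes were tested. Leaving out each library in turn gave 5992 to 6127 genes, 12090 to 12582 past the adjusted p alone, and 5977 to 6155 in the vector libraries. Libraries of the 2 lines with the same replicate number had correlations of deviations of 0.145, 0.138 and 0.005, and those with unlike numbers -0.191 to 0.069. The labels do not say whether replicate numbers pair the samples, and the main fit did not pair them. With the replicate block 5746 genes were called and 13035 passed the adjusted p, against 12469 without it, with 5727 called in the vector libraries. Genes read in Cal27 and at the floor in HN6 numbered 217 and 35 when 1 or 10 CPM counted as read, and those read in HN6 and at the floor in Cal27 numbered 153 and 23. FASN, which did not pass, turned to 0.014 with library-size and 0.017 with upper-quartile scaling, and RPLP0, which did not pass either, to -0.017 without a filter and to -0.0096, -0.0049 and -0.0052 without HN6 replicate 2, HN6 replicate 3 or Cal27 replicate 1, within a range of -0.0096 to 0.044 over the libraries left out. Library-size or upper-quartile scaling also turned the sign of the small medians of the lists of lineage transcription factors, cornified envelope, collagens, TGF-beta and BMP, fatty acid synthesis, NRF2, stem cell genes and vesicle formation. Over the named genes and lists, 3946 values under other settings kept their direction and call, 26 lost and 11 gained a call and 204 moved; of those without 1 library 2240, 10, 7 and 44 did. At these depths a gene with 0 counts over a group gives only a bound, and one with 1 or 2 counts a ratio with a wide counting interval.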
